A study of Drosophila melanogaster with 6 samples.

Results

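The Su(H) peaks on chromosome arm 3L outside the Bearded complex were 429 of the 4403 peaks in the list for the whole series, or 9.74% (95% interval 8.88 to 10.7%). They were 20.7% of the 2074 peaks on the chromosome arms. The larger part of the list lay on other sequences, among them the scaffold 3LHet with 35 peaks. The 429 peaks were taken as all peaks on 3L except 5. Those left out lie wholly within the stretch assigned to the Bearded complex, a gene cluster known for its response to Notch. Those 5 lie between 14960789 and 14972917. The nearest members were 14953650 to 14953982, which ended 1018 bp before that stretch, and 15011478 to 15011729, which began 31.5 kb after it. Their scores were 18.85 and 13.32, and the peaks left out scored between 16.41 and 289.92. All positions are on FlyBase release 5 of the Drosophila melanogaster genome, and no gene is given for them because the gene table at hand is on another release.

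The study made 3 ChIP libraries and 3 input DNA libraries from embryos of the strain Y cn bw sp, labelled stage 0-8 and of unknown sex. ChIP and input embryos shared 1 genotype and differed in no treatment. Its alleles, in alphabetical order, are bw[1], CG33964[R4.2], cn[1], Gr22b[1], Gr22d[1], GstD5[1], lab[R4.2], LysC[1], MstProx[1], oc[R3.2], Rh6[1], sp[1] and y[1]. The antibody was a rabbit polyclonal against amino acids 259 to 594 of Su(H), with cross-linking by 15 min in 1.8% formaldehyde. The protocol text speaks of a laying period of 8 to 16 hours, which differs from the stage label. Whole embryos hold many cell types, and the peaks cannot be assigned to any of them.

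Su(H) is the DNA-binding protein through which Notch signalling reaches its target genes. When Notch is activated, its intracellular domain enters the nucleus and joins Su(H) together with the co-activator Mastermind. Without the signal, Su(H) acts at many of the same genes with the co-repressor Hairless. In the fly embryo the pathway is known for choosing single neural precursors among equivalent cells and for setting up the mesectoderm at the border of the mesoderm. The question put to the peak list was where along the arm the protein was found and what the peaks looked like there.

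The peaks on 3L were short and mostly of modest score. The score is the authors' value for each peak, on a scale that the file does not state. It ranged from 7.05 to 355.71, with a median of 13.35 (95% interval 12.83 to 14.50) and quartiles of 10.78 and 18.60. The median width was 349 bp (331 to 371 bp), the narrowest peak being 201 bp and the widest 2518 bp. Together the peaks covered 194 kb, or 0.799% of the 24.3 Mb between the first and the last of them. The 1640 peaks of the other 5 arms had a median score of 13.47 (13.16 to 13.81) and a median width of 351 bp (336 to 365 bp). Both medians of 3L lay within the intervals of the other arms.

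The 43 peaks in the top 10% are called strong here, which put the limit at 28.78. The members just inside it were 15333885 to 15334696 and 9144522 to 9144806, both at 28.78, and the highest score just outside it was 28.60. Of the 43, 31 were narrow, meaning up to 1000 bp, and 25 were isolated, meaning that no other peak lay within 5 kb. The 22 peaks that were both made up 51.2% of the strong peaks (35.5 to 66.7%). Isolation was about as common among the other 386 members, of which 57.5% (52.4 to 62.5%) were isolated, as among the strong ones with 58.1% (42.1 to 73.0%). Narrow peaks were less common among the strong ones, at 72.1% (56.3 to 84.7%), than among the other members with 97.9% (96.0 to 99.1%).

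The highest of the narrow, isolated peaks was 6736704 to 6737365, with a score of 355.71 and a width of 662 bp. The next member by score was 699036 to 699857, which scored 140.04 over 822 bp. A smaller strong peak, 6745492 to 6745853, lay 8.13 kb to the right of the highest peak, scored 53.45 and was only 362 bp wide. Next in rank among the narrow, isolated peaks came 13912913 to 13913798 with a score of 122.93 and a width of 886 bp. It was followed by 10959556 to 10960260 with 91.44 over 705 bp and 19055405 to 19056326 with 90.07 over 922 bp.

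The remaining narrow, isolated peaks among the 20 highest scores lay between 51.60 and 70.98. The most remote of these was 21000558 to 21001523, which scored 68.84 and stood 134 kb from its nearest neighbour. The narrowest was 14667100 to 14667456, which scored 58.19 over 357 bp and stood 61.6 kb from any other peak. The others were 18221845 to 18222591 (score 70.98), 753546 to 754106 (65.28), 19784067 to 19784635 (62.21) and 9494273 to 9494846 (51.60), between 561 and 747 bp wide. The least of all 22 was 9144522 to 9144806, only 285 bp wide and 145 kb from its neighbour. Over the 22 the median width was 671.5 bp (569 to 747 bp) and the median distance to the nearest peak 22.1 kb. Where a strong peak was not both narrow and isolated, the median width was 1139 bp (748 to 1632 bp), a difference that the selection by width itself produces in part.

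**Figure D1:**
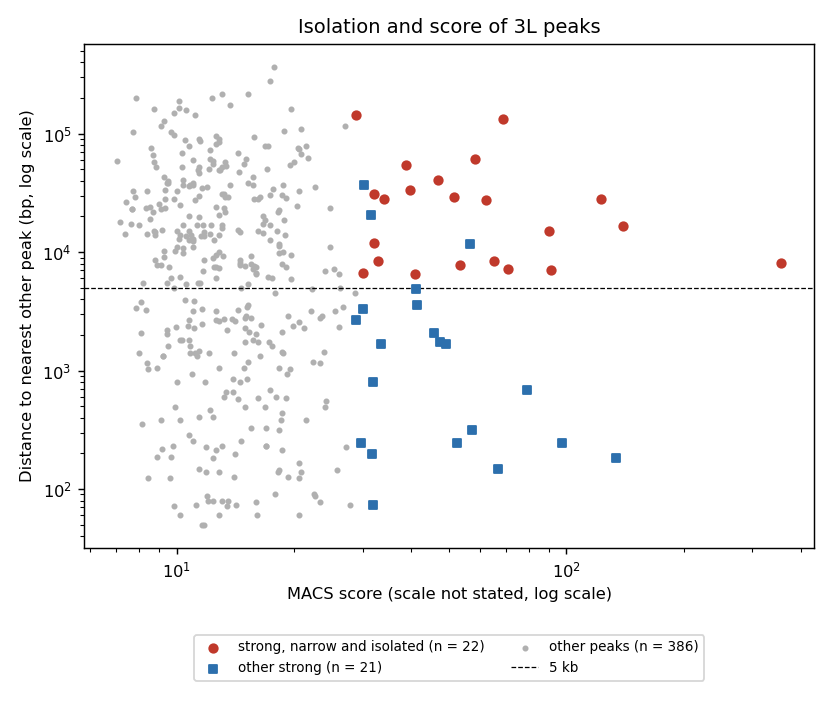
Distance to the nearest other member (bp, log scale) against the MACS score (log scale) for the 429 peaks of 3L outside the Bearded complex. Each point is 1 peak, and the dashed line marks 5 kb. Red points are the 22 strong peaks that were narrow and isolated, blue squares the other 21 strong peaks and grey points the other 386. The peak with a score of 355.71 stands alone at the right, 8.13 kb from its neighbour.

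The same limits of score, width and isolation were applied to the other large arms. On 3L 5.13% of peaks met them (3.24 to 7.66%), against 3.00% (2.23 to 3.94%) on 2L, 2R, 3R and X together. By arm the count was 22 of 429 on 3L, 22 of 505 on 3R, 10 of 447 on 2L, 10 of 463 on 2R and 7 of 220 on X. The intervals of 3L and of the other arms overlapped, and the difference was not tested. The score limit was set as the top 10% of 3L itself, while 8.20% (6.91 to 9.63%) of the peaks on the other arms reached it. No gene complex was left out on those arms. Among peaks at or above 28.78, 51.2% were narrow and isolated on 3L and 36.6% (28.4 to 45.3%) on the other arms.

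The spacing of strong peaks varied widely and was not compared with random placement. The median gap between neighbouring strong peaks was 352 kb, and the longest, from 10960260 to 13912913, was 2953 kb. The fullest 200 kb stretch held 5 strong peaks between 613767 and 763289, near the distal tip of the arm. It was singled out after the values were seen. From left to right these 5 scored 40.90, 140.04, 47.32, 65.28 and 32.84, and all were between 561 and 844 bp wide. They were 5 of the 10 peaks in those 150 kb, and 4 of the 5 had no neighbour within 5 kb.

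Beyond the single peaks, 182 of the 429 members (42.4%, 37.7 to 47.3%) lay in runs, chains of peaks with gaps of up to 5 kb. There were 72 runs, of which 50 were pairs, 12 had 3 peaks, 6 had 4, 3 had 5 and 1 had 7. Their median length was 3.34 kb and the longest extended over 11.6 kb. On the other 5 arms together 53.0% of peaks lay in runs (50.6 to 55.5%), and the 4 other large arms ranged from 50.5% on X to 56.2% on 2L. The share on 3L was the lowest of the 5 large arms, and this difference was not tested. Removing the Bearded complex hardly bears on it, since with its 5 peaks the share was 43.1%.

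Peaks in runs had slightly higher scores and were wider than those standing alone. The median score was 14.97 (13.91 to 15.95) in runs and 12.83 (12.20 to 13.30) outside them, and the intervals did not overlap. Median widths were 412 bp (369 to 457 bp) in runs and 307 bp (292 to 336 bp) outside them. Strong peaks were equally frequent, at 9.89% of the peaks in runs (5.97 to 15.2%) and 10.1% of those alone (6.66 to 14.6%). The middle of the score range thus differed, while the frequency of strong peaks did not differ detectably.

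The fullest run lay at 5453657 to 5459450 and held 7 peaks. They covered 82.6% of its 5.79 kb, and the gaps between them were only 73 to 264 bp, so that they became a single peak once gaps of up to 1 kb were closed. From left to right the scores were 11.98, 22.65, 9.17, 31.89, 27.88, 8.46 and 52.33. The highest was the right-most, 5458123 to 5459450, at 1328 bp, and the widest was 5455465 to 5457096 at 1632 bp. The nearest other peaks lay 349 kb to its left and 170 kb to its right.

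Runs were also ranked by their summed score, which serves only for ranking because the scale is not stated. The run with the highest sum, 209.42, lay at 22393053 to 22401520 with 4 peaks. All 4 were strong, with scores of 48.97, 33.42, 29.68 and 97.35 from left to right. The last, 22401043 to 22401520, was only 478 bp wide and 243 bp from its neighbour. The run at 10848535 to 10854363 came next with 181.49 and was of another form. A single peak, 10849216 to 10850385, scored 134.06, and its 3 companions scored 18.60, 12.41 and 16.42. The run at 23105864 to 23110631 summed to 118.50 over 4 peaks and was led by the widest member, 23105864 to 23108381, with a score of 66.75 over 2518 bp.

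The 3 runs of 5 peaks had no strong member. They were 24266061 to 24272173, 23378873 to 23384996 and 23293362 to 23298455, with summed scores of 74.03, 71.42 and 64.90. Their highest peaks scored 18.35, 18.25 and 24.15. All 3 lay beyond 23 Mb. Of the 10 runs with 4 or more peaks, 6 lay beyond 22 Mb. The most unequal pair joined a peak of 45.65 and 2301 bp at 17377199 to 17379499 to one of 8.11 and 221 bp.

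**Figure D2:**
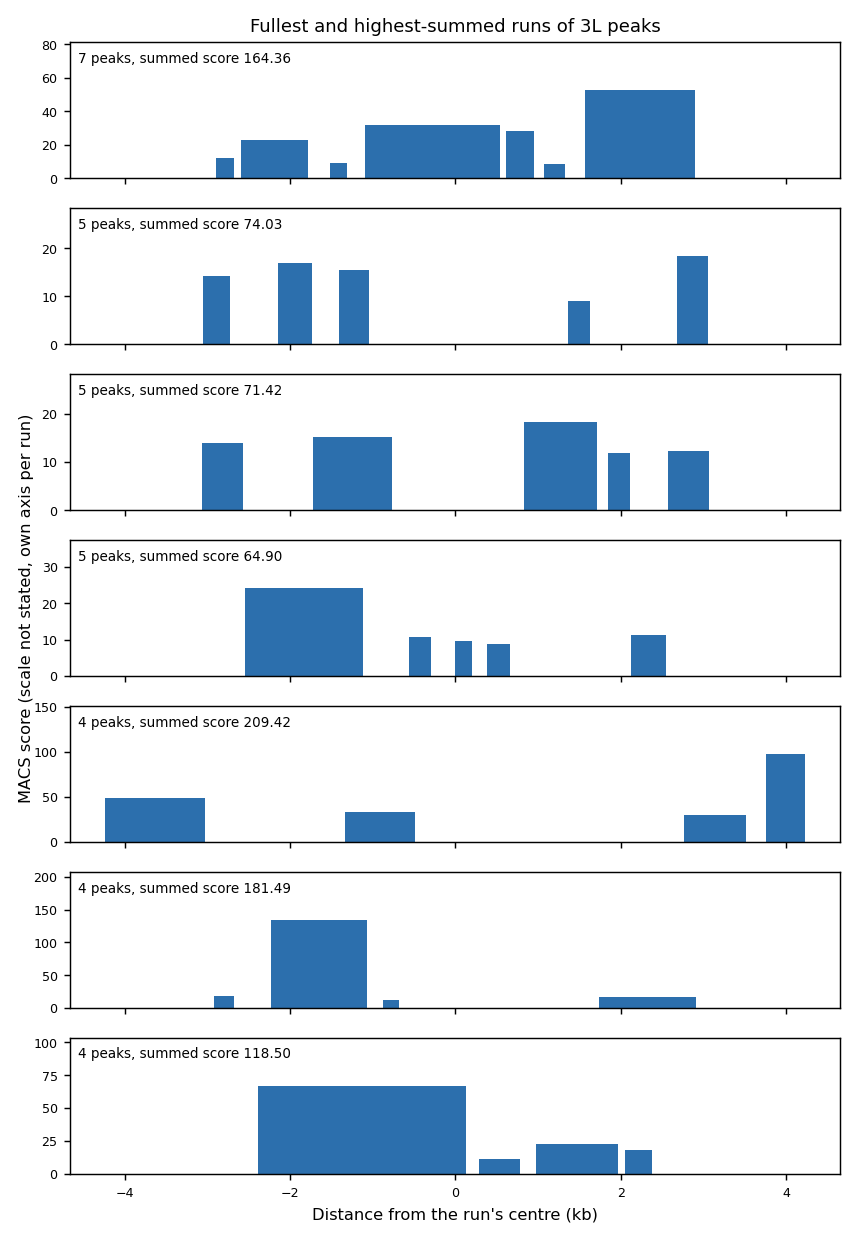
Peaks in the 7 runs of 3L with the most peaks or the highest summed score, as distance from the run's centre (kb) against MACS score, with a score axis of its own for each run. Each bar is 1 peak, drawn at its width. The 7-peak run at the top is nearly continuous, the run with a summed score of 209.42 has its highest peak at the right end, and the run with 181.49 is dominated by 1 peak of 134.06.

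Gaps between neighbouring members had a median of 23.6 kb. Of the 428 gaps, 110 were at most 5 kb (25.7%, 21.6 to 30.1%), 53 were at most 1 kb and 33 at most 300 bp. The shortest was 50 bp. Closing gaps of up to 1 kb reduced the members to 376 peaks and turned 26 of the 72 runs into single peaks. The longest stretches without a member were 536 kb from 23514354 to 24050653, 498 kb from 7443348 to 7941736 and 492 kb from 19164990 to 19656725. As the read depth is unknown, a stretch without a peak does not show that Su(H) was absent there.

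Along the arm, 1 Mb bins counted from the first peak held 17.2 ± 8.62 peaks (SD over 25 bins, the last incomplete), from 3 to 39. A bin is called dense here when it held at least 1.5 times the mean, which is 25.74 peaks. Only 2 bins passed it, 5131568 to 6131567 and 22131568 to 23131567 with 39 peaks each and well above the limit. Just outside it were 12131568 to 13131567 and 21131568 to 22131567 with 25 each. The sparsest bin, 7131568 to 8131567, held 3 peaks, the highest with a score of 17.76.

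The 2 dense bins differed from each other. In the first, the 39 peaks all lay in the right-hand 662 kb, and its first 3 windows of 100 kb were empty. The next window held the 7-peak run, and the fullest one, 5831568 to 5931567, held 11 peaks. Its median score was 11.98, and its only 2 strong peaks both belonged to the 7-peak run. The second dense bin had between 1 and 7 peaks in each window of 100 kb and held 6 strong peaks, the most of any bin. Its highest were the peaks of 97.35 and 66.75 in the runs described above, and its median score was 12.86.

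Taking the dense bins together, 61.5% of their 78 peaks lay in runs (49.8 to 72.3%), against 38.2% (33.1 to 43.5%) of the 351 peaks elsewhere. More peaks per bin also mean shorter gaps, and how much of this difference goes beyond the density was not tested. No difference in score was detectable. The median was 12.73 (11.07 to 16.00) in dense bins and 13.47 (12.87 to 14.57) elsewhere, and 10.3% of peaks (4.53 to 19.2%) against 9.97% (7.04 to 13.6%) were strong. The strongest peak of all lay in a bin of 11 peaks, 6131568 to 7131567, none of which was in a run. Of the 25 bins, 8 held no strong peak, among them both bins with 25 peaks.

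**Figure D3:**
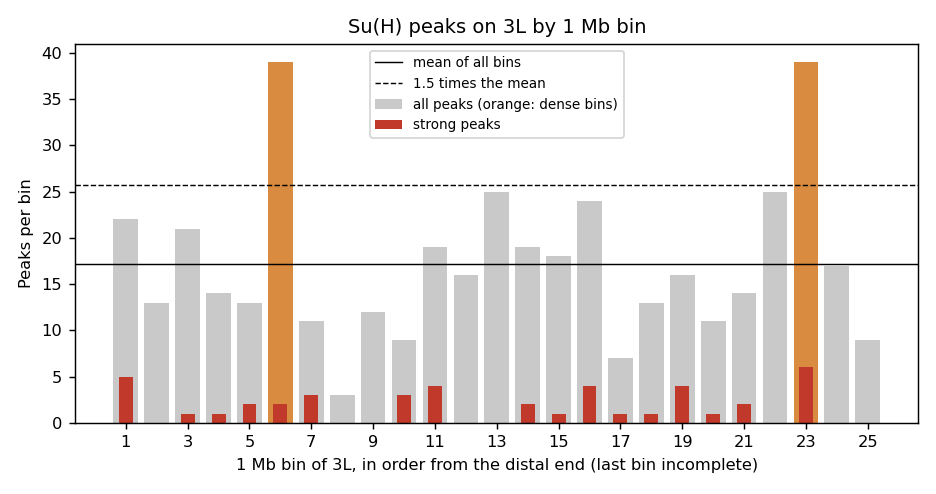
Number of members in each of the 25 bins of 1 Mb, in order from the distal end of 3L, with strong peaks as narrow red bars. Orange bars are the 2 dense bins with 39 peaks each, the solid line is the mean of 17.2 and the dashed line is 1.5 times the mean. The 6 strong peaks of the 23rd bin are the most in any bin, while the bins with 25 peaks have none.

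The proximal end of the arm, toward the centromere, was examined beyond 22 Mb. In the assembly the arm passes there from gene-rich euchromatin into repeat-rich chromatin next to the centromere, and the scaffold 3LHet holds further heterochromatin of the arm. The members beyond 22 Mb numbered 73 (17.0% of all members), the first at 22020016 to 22020455 with a score of 11.59 and the last at 24460744 to 24463103 with 23.87. The last member before the limit was 21973639 to 21973850, with a score of 11.39. The density was 29.6 peaks per Mb (23.2 to 37.3) beyond 22 Mb, against 16.3 (14.6 to 18.1) in the rest of the arm and 16.0 (11.2 to 22.3) on 3LHet. At this limit the interval of the proximal end did not overlap those of the rest of the arm and of 3LHet. The separation depended on the limit: with the limit moved 0.5 Mb toward the centromere the density was 23.9 (17.6 to 31.8), against 17.1 (15.4 to 18.9) in the rest of the arm, and the intervals overlapped.

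The excess lay mostly in the first of these megabases. Between 22 and 23 Mb there were 43 peaks per Mb (31.1 to 57.9). From 23 to 24 Mb there were 20 (12.2 to 30.9), and from 24 Mb to the last peak 21.6 (10.4 to 39.7). Both of the later intervals reached below the 16.3 peaks per Mb of the rest of the arm. Beyond 23 Mb as a whole the density was 20.5 per Mb (13.8 to 29.3), against 17.4 (15.8 to 19.2) up to 23 Mb, and these intervals overlapped.

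No difference in score or width was detectable at the proximal end. The median score there was 14.02 (12.20 to 15.76), against 13.31 (12.83 to 14.50) in the rest of the arm and 14.00 (11.59 to 17.13) on 3LHet. The median width was 388 bp (295 to 452 bp), against 340.5 bp (326 to 362 bp) in the rest and 381 bp (274 to 675 bp) on 3LHet, and all these intervals overlapped. Strong peaks were 6 of the 73, or 8.22% (3.08 to 17.0%), against 10.4% (7.42 to 14.0%) of the rest. Of these 6, 5 were in the runs of summed score 209.42 and 118.50, and the other was 22543566 to 22544704, a single peak of 30.29 and 1139 bp. After 23105864 to 23108381 no strong peak followed. The 29 members to its right reached at most 24.15 and had a median of 13.93.

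Proximal peaks lay closer together than those in the rest of 3L. Of the 73, 49 were in runs, or 67.1% (55.1 to 77.7%), against 37.4% (32.3 to 42.6%) in the rest of 3L and 68.6% (50.7 to 83.1%) on 3LHet. Density and closeness go together, and their separate parts were not tested. Peaks covered 1.56% of the proximal stretch and 0.714% of the rest.

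The same length, 2.46 Mb, was taken at both ends of the 5 large arms, up to the outermost peak. At the proximal ends the density was 29.6 peaks per Mb on 3L, 21.9 on 2R, 21.5 on both 3R and X, and 14.2 on 2L. The interval of 3L overlapped those of 2R, 3R and X, and lay above that of 2L (9.90 to 19.8). Relative to the middle of the same arm, the proximal end was denser on 3L (29.6 against 16.3) and on X (21.5 against 8.34), and in neither arm did the 2 intervals overlap. On 2R, 3R and 2L the intervals of the end and the middle overlapped. The distal end of 3L, at 15.8 peaks per Mb, was close to its middle. No value of the input libraries was analysed here, so these densities could not be set against input coverage.

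**Figure D4:**
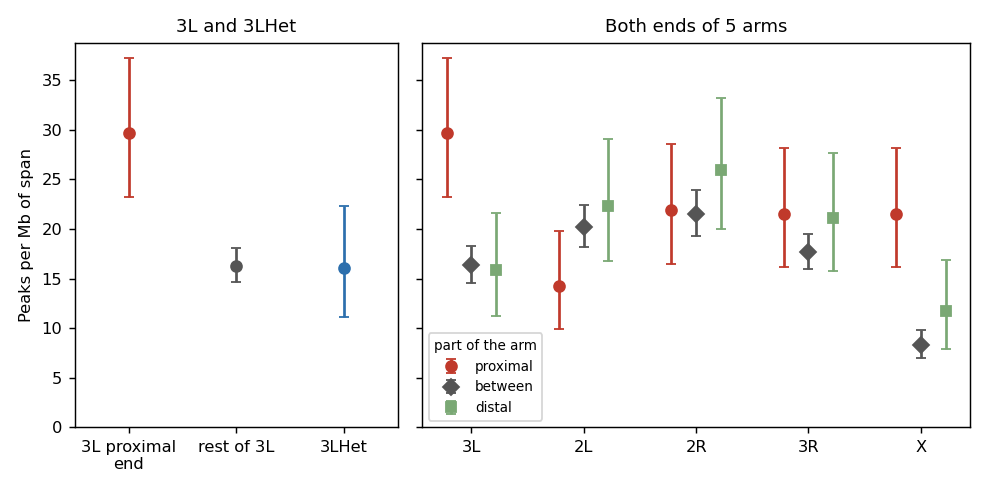
Peaks per Mb of span with exact 95% Poisson intervals, which cover counting error only. Left, the proximal end of 3L, the rest of 3L and the scaffold 3LHet. Right, the proximal 2.46 Mb, the stretch between the ends and the distal 2.46 Mb of 3L, 2L, 2R, 3R and X. The proximal end of 3L, at 29.6 peaks per Mb, stands above the rest of its arm at 16.3, and the proximal end of X stands above its middle.

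Higher-scoring peaks were wider over most of the range. Across the 429 members score and width had a Spearman correlation of 0.64, given as a description because peaks share their libraries and their caller. It was 0.63 on 2R and 3R, 0.55 on 2L and 0.52 on X. The members were also divided by score into 5 classes of 85 or 86 peaks. The median width was 238.5 bp in the lowest class and 295.5, 346, 413 and 662 bp in the following ones. Within single classes the correlation was weaker, between 0.13 and 0.32, and highest in the top class. The list had no peak under 201 bp, and 51 members were at most 220 bp wide, 25 of them in the lowest class and none in the highest.

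Among the 43 strong peaks alone the correlation was 0.05, against 0.56 over the 386 others. Within the single score classes above the correlation was also lower than over the whole list. At 0.13 to 0.32 it stayed above the value of the 43 strong peaks. No interval was computed for these coefficients, so whether they differ was not tested, nor was the cause. Of the 20 highest and the 20 widest members only 6 were shared. The peak with the highest score ranked 69th in width, and its 662 bp were 0.252 of the width given by a line fitted to log width on log score. The line was fitted over all members, and at this score it gave 2625 bp, more than the 2518 bp of the widest member. No other member scored above 140.04. Also narrow for their score were 22401043 to 22401520 (score 97.35, 478 bp), 14667100 to 14667456 (58.19, 357 bp), 6745492 to 6745853 (53.45, 362 bp) and 8386287 to 8386534 (25.56, 248 bp). Each had 0.400 to 0.468 of the usual width. The highest peak and its neighbour 8.13 kb away were thus both among the 5 narrowest for their score.

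The members farthest above the fitted line had scores between 11.93 and 45.65, and 2 of these 5 were strong. The widest for its score was the last peak of the arm, 24460744 to 24463103, with 23.87 over 2360 bp, or 4.64 times the usual width. It was followed by 3836960 to 3838391 (score 11.93, 1432 bp), 6783844 to 6786031 (31.55, 2188 bp), 17377199 to 17379499 (45.65, 2301 bp) and 5689703 to 5690907 (16.07, 1205 bp), at 3.01 to 4.29 times. Of the 10 widest members 8 lay in runs, and 3 lay beyond 22 Mb. Only 6783844 to 6786031 and 16036066 to 16037715 (score 56.45, 1650 bp) stood alone. The widest members included 3836960 to 3838391, which ranked only 271st in score.

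**Figure D5:**
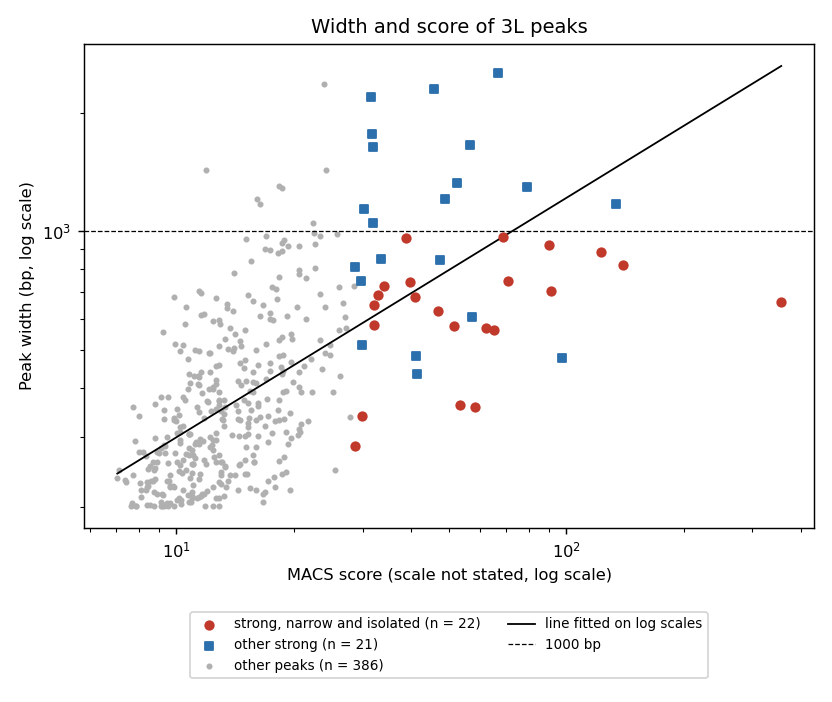
Width (bp) against MACS score for the 429 members, both on log scales, with the fitted line and a dashed line at 1000 bp. Red points are the 22 narrow, isolated strong peaks, blue squares the other 21 strong peaks and grey points the other 386. Widths rise with score among the grey points, while the strong peaks scatter, with the highest score of 355.71 at only 662 bp.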

How the data were processed

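Chromatin immunoprecipitation followed by sequencing (ChIP-seq) gave 1 peak list for the whole series, and the list holds no value per library. Positions are on FlyBase release 5 and the peaks come from MACS, per the file headers. The authors deposited 1 score per peak, on a scale that the file does not state. The build BDGP5 and the tools BWA, MACS2 and CASAVA (1.7.0.2, also 1.7.0.3) are named in the submitters' processing notes. Calling threshold, pooling of libraries and read depth were not given in the sources used here. Start and end positions, the other values that the authors deposited, were read as counted from 1.

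Peaks were chained, counted in bins and ranked with Python 3.11.15, numpy 2.4.6, pandas 2.3.3 and scipy 1.17.1, and figures were drawn with matplotlib 3.10.9. The chaining and joining of peaks and the sum of the bin counts were tested on simulated data. No test was run, because replicates cannot be separated. The 95% intervals are exact binomial for shares, exact Poisson for densities and from order statistics for medians. They treat peaks as independent and cover counting error only. Peaks were named by rules on score, width, number of peaks and position. The members, thresholds and rules were chosen with earlier results of these data known. Alternatives changed each threshold, the bin start and the peaks used. As the only gene table used is on Release 6, no gene or sequence was assigned to a peak.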

Additional observations from a re-analysis of the deposited data

How the results depend on the processing

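Of 31 alternatives, 20 left the value within its 95% interval (for the correlation an approximate one, 0.58 to 0.70) or, for counts, within 1.5 times, and 11 moved it. The 22 strong, narrow, isolated peaks became 12 with the top 5% and 38 with the top 20% of scores, 4 with widths up to 500 bp and 11 with isolation by over 20 kb. The share in runs became 29.8% with gaps of 2 kb, 67.8% with 20 kb, 35.5% in the top 50% of scores and 27.4% after joining gaps of up to 1 kb. The proximal density became 20.5 per Mb beyond 23 Mb and 15.4 in the top 50% of scores, where the rest of the arm had 8.05. The correlation of score and width became 0.47 in the top 50% of scores. Stricter or looser limits and fewer peaks change these counts and shares by construction. For the correlation and for the density beyond 23 Mb the cause was not tested. Bins from position 1 gave 2 dense stretches, with 32 and 43 peaks. Bins starting 0.5 Mb later gave 3, joining gaps of up to 1 kb gave 3 and the top 50% of scores gave 6, so the number of dense stretches depends on these choices. Leaving out single libraries could not be done with 1 list for the series. No paired analysis was possible because ChIP and input replicates share 1 list.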

Other observations

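Many members shared their score exactly. The 429 members had 291 distinct scores, and 203 members shared 65 repeated values, all of them at or below 29.99. The most frequent was 12.83, found in 8 members (1.86%, 95% interval 0.808 to 3.64%) and in 18 of the 1640 peaks on the other arms (1.10%, 0.652 to 1.73%). Ranks among low scores therefore rest in part on ties.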
